A study of Caenorhabditis elegans with 6 samples.

Results

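Genes of the cuticle collagen family of Caenorhabditis elegans, col-7, col-8, col-19, col-62, col-63, col-106, col-119, col-137, col-181 and col-184, were described in whole animals of the mutant bcf-1(ylf1) and of the wild-type strain N2. They are 10 of 156 col genes among the 20894 rows of the expression table. col-7, col-19, col-62 and col-63 were listed as collagens of the adult cuticle, and the other 6 were selected on their mutant and N2 values in these libraries, as collagens with a much lower level in the mutant. That difference is therefore given below as a description of the 10 genes, with no test. All 6 libraries were labelled as adult animals, with no age in hours or days, and both genotypes grew on E. coli OP50, the usual bacterial diet of laboratory worms. There were 3 mutant and 3 N2 libraries, stated by the submitters to have been generated, collected and processed independently. The lesion carried by the ylf1 allele is not described in the labels.

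The cuticle of a nematode is an extracellular coat of cross-linked collagens that the hypodermis, the epidermis of the worm, secretes anew at every moult. Cuticle collagens are short chains with a repeated glycine in their helical parts, which are hydroxylated and folded in the secretory pathway, trimmed by proteinases and joined by tyrosine cross-links outside the cell. The set of collagen genes in use differs between stages, and col-19 is the usual reporter of the adult epidermis, switched on at the last moult through the zinc finger factor LIN-29 at the end of the heterochronic pathway, which times development.

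The values of the deposited table were read as FPKM, fragments scaled by transcript length and library size, which allows levels of different genes to be compared per length. They summed to 659249 to 668784 in the mutant libraries and 671119 to 687573 in the N2 libraries, and the depth behind them is unknown. The targeted gene bcf-1 lay at 63.7, 72.1 and 60.0 FPKM in mutant replicates 1 to 3, against 374, 412 and 499 FPKM in N2 replicates 1 to 3. In limma on log2(FPKM + 1), 4703 of 13576 tested genes were higher and 2035 lower in the mutant at an adjusted p under 0.05 (49.6% called, 34.6% higher and 14.99% lower). After median-ratio scaling of the libraries 2975 were higher and 3210 lower, and the higher genes numbered 2877 without mutant replicate 1 and 3002 without mutant replicate 3. Over all tested genes the log2 changes had a median of 0.24, against which list medians can be read. In a principal component analysis, N2 replicate 1 stood apart from the other N2 libraries on the second component, at 28.9 against -14.9 and -13.4.

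The 10 genes are dispersed and compact. Per the WBcel235 annotation of Ensembl, 3 lie on chromosome I, 1 on III, 3 on IV and 3 on X, and none of the 24 col genes of chromosome II or the 31 of chromosome V is among them. The annotated proteins run from 289 to 381 residues with a median of 306, close to the median of 304 over the other 146 col genes, which run from 154 to 740 residues. col-19 (ZK1193.1; chromosome X, 421707 to 422691, plus strand) has 2 exons and encodes 289 residues. col-7 (C15A11.5; chromosome I, 7401132 to 7402761, plus strand) and col-62 (C15A11.6; chromosome I, 7403291 to 7404374, minus strand) are neighbours whose 3′ ends face each other across 529 bp. They share an exon number of 2 and a protein length of 316 residues, and differ in the annotated 5′ untranslated region, which is 565 bases in col-7 and 22 bases in col-62. col-63 (ZK265.2; chromosome I, 8243694 to 8244963, minus strand) has 2 exons and the longest protein, 381 residues.

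Of the remaining genes, col-106 (Y77E11A.15; chromosome IV, 1459896 to 1460786, minus strand, 296 residues) and col-119 (C53B4.5; chromosome IV, 8978926 to 8979795, minus strand, 289 residues) have a single exon each. col-8 (F11H8.3; chromosome III, 7019583 to 7020600, minus strand, 294 residues) and col-137 (Y51H4A.9; chromosome IV, 16601480 to 16602776, minus strand, 351 residues) have 3 exons each. col-181 (W03G11.1; chromosome X, 12104930 to 12106102, plus strand, 332 residues) and col-184 (F15A2.1; chromosome X, 13469455 to 13470409, plus strand, 291 residues) have 2 exons and 2 annotated transcripts each. Apart from col-7 and col-62, the only flanking protein-coding gene of the col family was col-183 beside col-184, which was listed at 0 in every mutant library and averaged 0.0220 FPKM in N2.

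**Figure D1:**
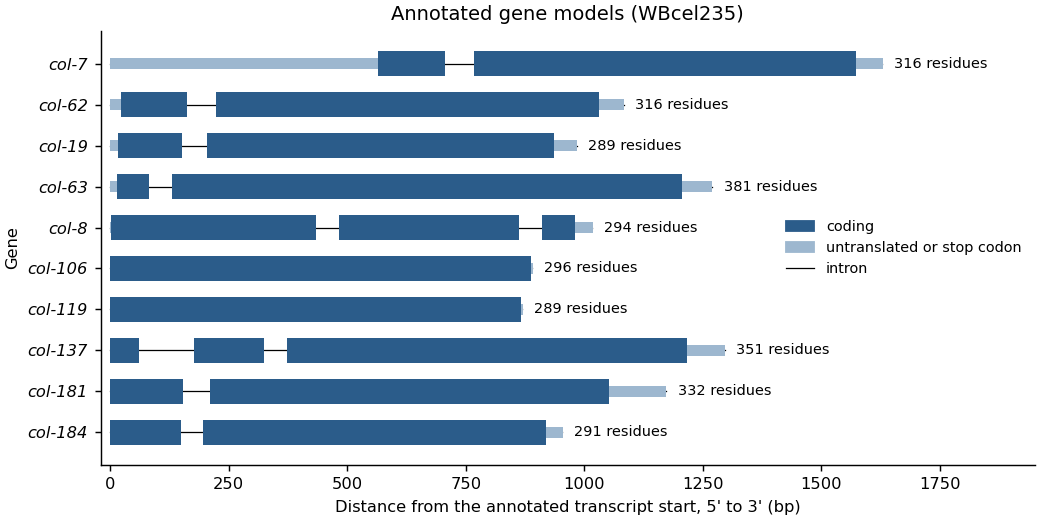
Annotated models of the 10 collagen genes, drawn from the transcript start (horizontal axis, bp), with coding parts as tall bars, untranslated parts and stop codons as low bars and introns as lines. For genes with 2 transcripts the one with the longer coding part is drawn. All are short genes of 1 to 3 exons, and col-7 carries a 5′ untranslated region of 565 bases that its neighbour col-62, with the same protein length, lacks.

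Some of the genes overlap others on the opposite strand, and the sources used here do not say whether the authors' counting used strand. col-19 lies inside the bounds of ZK1193.2, listed as hrg-11.4 in the name table, and col-119 inside those of pdzd-8, but no exon base is shared with either. ZK1193.2 averaged 17.4 ± 0.811 FPKM in the mutant and 5.23 ± 1.41 FPKM in N2 and pdzd-8 29.9 ± 1.05 FPKM in the mutant and 20.2 ± 3.32 FPKM in N2 (SD, n = 3 each), and both were higher in the mutant (limma adjusted p = 0.000193 and 0.0117). The call of pdzd-8 was lost after median-ratio scaling and without mutant replicate 3 (adjusted p = 0.0745 and 0.0519). col-8 shares 2 exon bases with lgc-38 and col-137 shares 21 with a piRNA gene. Reads common to similar collagen genes may have been divided in a way the sources do not state, so each value is uncertain to that extent.

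The collagen genes other than col-63, 9 of the 10, were lower in every mutant library than in any N2 library. Across all 13576 tested genes, 18.002% were lower and 40.4% higher with no overlap between the genotypes, and nothing is read from the count of the 10, since the same contrast chose them. Their median log2 change was -5.21, or -5.44 relative to all tested genes, and the other 107 tested col genes had a median of -1.23 relative to all tested genes. All 10 passed the filter on low values, col-8 only through its N2 libraries. Because 1 is added before taking logarithms, log2 changes understate the difference for genes near 0, and ratios of mean FPKM are given beside them. In whole animals, fewer hypodermal cells and less RNA per cell cannot be told apart.

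Among the adult-cuticle collagens, col-19 had 15.7, 24.5 and 11.8 FPKM in mutant replicates 1 to 3, against 923, 522 and 878 FPKM in N2 replicates 1 to 3. Every N2 library lay far above every mutant library, and the mean was 44.7-fold lower in the mutant (log2 change -5.42). col-7 had 1.21, 1.49 and 0.790 FPKM in the mutant libraries, against 307, 120.5 and 216 FPKM in the N2 libraries, a 184.3-fold lower mean (log2 change -6.55). col-62 had 2.503, 2.69 and 1.06 FPKM in the mutant libraries, against 438, 183 and 324 FPKM in the N2 libraries, a 151-fold lower mean (log2 change -6.64). In both neighbours mutant replicate 3 was the lowest mutant library and N2 replicate 2 the lowest N2 library.

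col-7 followed col-62 closely within N2. The ratio of col-7 to col-62 in FPKM was 0.482, 0.556 and 0.747 in mutant replicates 1 to 3, where both were near 1 to 3 FPKM, against 0.701, 0.657 and 0.666 in the N2 libraries. Multiplied by annotated exon length, 1569 bases for col-7 and 1023 bases for col-62, the ratio became 0.740 to 1.15 in the mutant and 1.01 to 1.07 in N2. The transcript lengths the authors used are unknown, so this holds only if they match the annotation.

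col-63, listed with the adult cuticle collagens, did not share the pattern of the other 9, and a strong shift between the genotypes does not describe it. It had 784, 501 and 867 FPKM in mutant replicates 1 to 3, against 563, 954 and 661 FPKM in N2 replicates 1 to 3. The genotypes overlapped, with means of 717 ± 192 FPKM in the mutant and 726 ± 203 FPKM in N2 (SD, n = 3 each), and the log2 change of -0.02 ran from -0.29 to 0.22 over the alternatives tried. In N2 it stood between 0.610 and 1.83 times the level of col-19, and in the mutant between 20.5 and 73.2 times. It ranked 14th of the 156 col genes by mean FPKM in the mutant and 34th in N2.

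**Figure D2:**
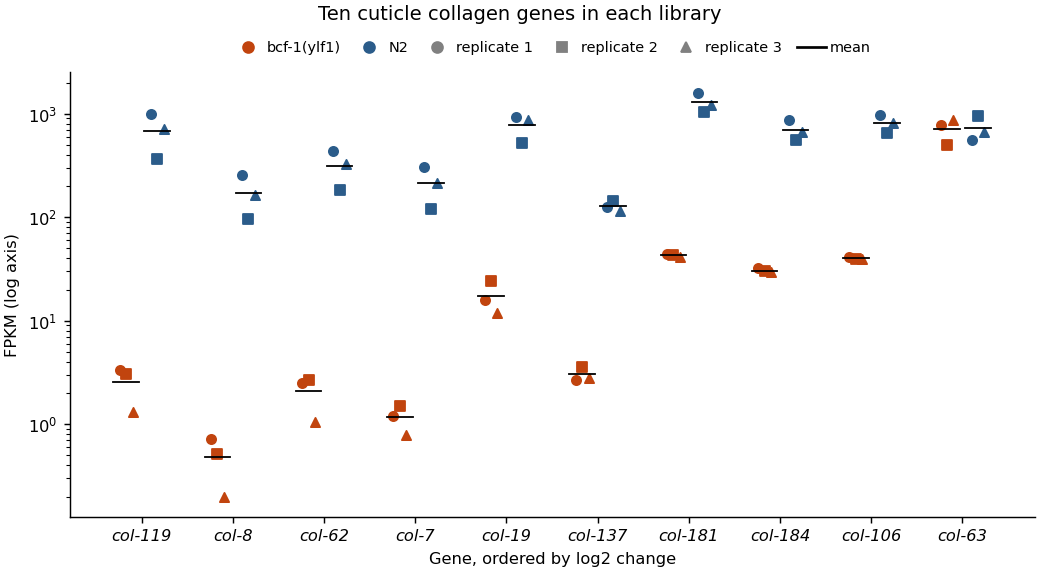
FPKM of the 10 collagen genes in each library (vertical log axis; symbols mark replicates, black lines the genotype means, mutant on the left and N2 on the right of each gene). All genes but col-63 are far apart between the genotypes, from col-106 at 39.1 to 41.1 FPKM in the mutant and 646 to 966 FPKM in N2 to col-8 at 0.19998 to 0.721 FPKM in the mutant and 95.6 to 254 FPKM in N2, while the points of col-63 overlap.

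Of the collagens listed for their low level in the mutant, col-119 had 3.37, 3.02 and 1.31 FPKM in mutant replicates 1 to 3, against 987, 366 and 711 FPKM in N2 replicates 1 to 3. It had the lowest log2 change of the 117 tested col genes, -7.53, with a mean 268-fold lower in the mutant. col-8 had 0.721, 0.521 and 0.19998 FPKM in the mutant libraries, against 254, 95.6 and 163 FPKM in the N2 libraries. By ratio of means it was lower than col-119, 355-fold, and on the log2(FPKM + 1) scale less so, at -6.76. Both genes were lowest in mutant replicate 3 and in N2 replicate 2, and their N2 libraries spanned 2.69-fold for col-119 and 2.66-fold for col-8.

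col-137 was the least abundant of the 10 in N2. It had 2.69, 3.60 and 2.80 FPKM in the mutant libraries, against 126, 144 and 114 FPKM in the N2 libraries, a 42.2-fold lower mean (log2 change -5.24 relative to all tested genes). Its N2 libraries lay close together, and N2 replicate 2, the lowest library for 8 of the 10 genes, was its highest.

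col-181, col-106 and col-184 were abundant in N2 and kept a measurable level in the mutant. col-181 had 44.4, 43.1 and 41.6 FPKM in the mutant libraries, against 1597, 1039 and 1221 FPKM in the N2 libraries, a 29.9-fold lower mean (log2 change -4.85). col-106 had 41.1, 39.1 and 39.5 FPKM in the mutant libraries, against 966, 646 and 811 FPKM in the N2 libraries, a 20.2-fold lower mean (log2 change -4.29). col-184 had 32.1, 30.0 and 29.4 FPKM in the mutant libraries, against 877, 560.4 and 673 FPKM in the N2 libraries, a 23.1-fold lower mean (log2 change -4.46). The mutant libraries of these genes differed by at most 1.09-fold within a gene.

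The order of the levels differed between the genotypes. In the mutant, col-63 averaged 717 ± 192 FPKM and stood alone, followed by col-181 at 43.0 ± 1.41, col-106 at 39.9 ± 1.06, col-184 at 30.5 ± 1.42 and col-19 at 17.3 ± 6.46 FPKM (SD, n = 3 each). Below these, col-137 at 3.03 ± 0.498, col-119 at 2.57 ± 1.105 and col-62 at 2.08 ± 0.891 FPKM differed from one to the next by about 1 SD or less. col-7 followed at 1.16 ± 0.354 FPKM, below col-62 in every mutant library (ratio 0.482 to 0.747). col-8 was lowest at 0.481 ± 0.263 FPKM. In N2, col-181 came first at 1286 ± 285 FPKM. It was followed by col-106 at 808 ± 160.0, col-19 at 774 ± 219.6, col-63 at 726 ± 203, col-184 at 704 ± 161 and col-119 at 688 ± 311 FPKM, which differed by less than the spread between replicates. col-62 at 315 ± 127, col-7 at 214 ± 93.1, col-8 at 171 ± 79.5 and col-137 at 128 ± 15.03 FPKM came last. col-181 ranked 64th of the 156 col genes by mean level in the mutant and 12th in N2.

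Summed over the 10 genes, FPKM came to 857 ± 183.7 in the mutant and 5813 ± 1203 in N2, a 6.78-fold lower sum. Without col-63 the sum was 140.1 ± 10.3 FPKM in the mutant and 5088 ± 1398 FPKM in N2, 36.3-fold lower. The 10 genes made up 2.17% to 3.91% of the FPKM of all col genes in the mutant libraries and 8.995% to 13.3% in the N2 libraries. All col genes together summed to 26971 ± 2497 FPKM in the mutant and 54287 ± 3552 FPKM in N2 (SD, n = 3 each), 4.07% and 7.96% of the library totals, so the family as a whole was 2.01-fold lower and the 9 collagens accounted for part of it.

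Replicates of one genotype, which the choice of the genes did not use, set the genes apart in a different way. N2 replicate 1 was 2.69 times N2 replicate 2 for col-119, 2.66 times for col-8, 2.55 times for col-7, 2.39 times for col-62 and 1.77 times for col-19. For col-184, col-181 and col-106 that ratio was 1.57, 1.54 and 1.495, and for col-137 and col-63 it was 0.872 and 0.590. Among 13503 tested genes above 0 in all libraries, the ratio had a median of 1.06 and ran from 0.641 to 2.04 between the 5th and 95th percentiles, so col-119, col-8, col-7 and col-62 lay above that range and col-63 below it. Among 104 other col genes its median was 0.779 and the same percentiles were 0.565 and 2.26. N2 replicate 1 was the highest and N2 replicate 2 the lowest N2 library for 8 of the 10 genes. The place of the 10 genes against these ranges is therefore partly set by the choice of this pair.

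The mutant libraries split the genes along similar lines. Mutant replicate 2 was 2.60 times mutant replicate 3 for col-8, 2.54 times for col-62, 2.31 times for col-119, 2.06 times for col-19 and 1.89 times for col-7, all at low levels. The ratio was 1.28 for col-137, 1.04 for col-181, 1.02 for col-184 and 0.989 for col-106, and 0.578 for col-63, which was lowest in mutant replicate 2 where col-19 was highest. Over all tested genes its median was 0.920, with 5th and 95th percentiles of 0.570 and 1.45, and over the 104 other col genes its median was 1.24, with percentiles of 0.658 and 2.02. Against the other col genes, col-7 thus lay inside that range and col-19 just above its upper end. Mutant replicate 3 was the lowest mutant library for 7 of the 10 genes, so the same limit holds for this pair. The vitellogenin genes, which encode yolk proteins of the adult intestine, summed to 24.2, 38.7 and 12.96 FPKM in mutant replicates 1 to 3 and to 3641, 2428 and 3362 FPKM in N2 replicates 1 to 3. That sum was thus also highest in mutant replicate 2 and N2 replicate 1 and lowest in mutant replicate 3 and N2 replicate 2, as for col-19, col-7 and col-62, and its part in the spread of the collagens was not tested.

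**Figure D3:**
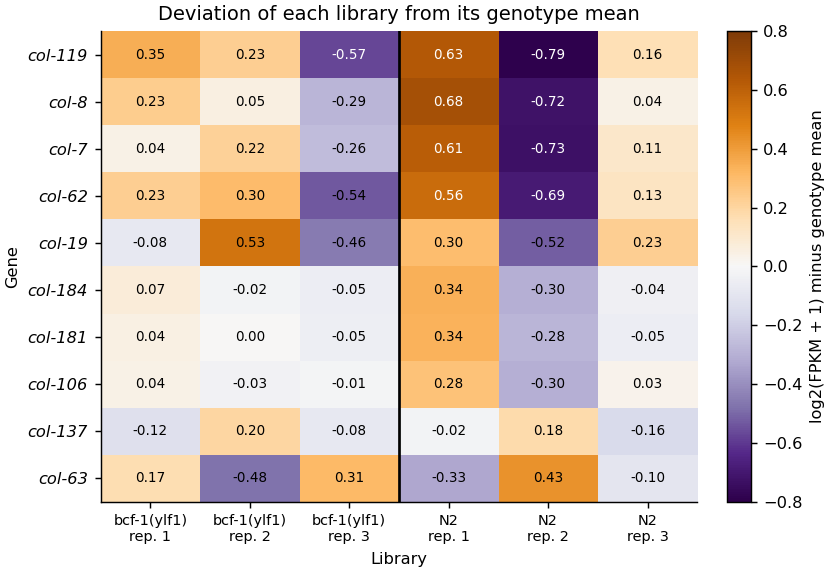
Deviation of each library from the mean of its genotype for the 10 genes, on the log2(FPKM + 1) scale (colour and printed value; rows are genes, columns are the mutant and N2 libraries). N2 replicate 2 is low and N2 replicate 1 high for 8 genes, the deviations of col-184, col-181 and col-106 in the mutant stay between -0.05 and 0.07, and those of col-63 have the opposite sign to those of col-19 in all 6 libraries.

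On the log2(FPKM + 1) scale other col genes had differences as large as those of col-137, col-181, col-184 and col-106. On that scale none lay as low as col-119, col-8, col-62, col-7 or col-19, though col-20 at -5.41 was next to col-19 at -5.42. On other scales, given below, some lay lower than col-19. Among the 107 other col genes tested, 63 fell and 12 rose in limma at an adjusted p under 0.05 (14.99% and 34.6% of all tested genes). A log2 change below -4 was seen in 14 of the 107, of which 13 passed the test, and 4 lay at or above 2. The smallest difference among the 9 collagens was that of col-106, and 12 other col genes lay below its -4.29, with col-122 just above it at -4.18. Of the 12, 11 passed the test. The other, col-93, was listed at 0, 0 and 239 FPKM in mutant replicates 1 to 3, against 1558, 0 and 1617 FPKM in N2 replicates 1 to 3, so its genotypes overlapped (log2 change -4.45, limma adjusted p = 0.243). On the log2(FPKM + 1) scale the 4 largest called falls were of col-20, col-81, col-178 and col-179, with means 45.9-fold, 42.4-fold, 42.6-fold and 50.2-fold lower in the mutant. The order depends on the scale, since by ratio of means col-95, col-143 and col-127 were 474-fold, 155-fold and 53.0-fold lower, and with a pseudocount of 0.1 col-126 (-5.57) lay below col-20 (-5.47). The ratio of col-95 rests on values of 0, 0.031 and 0 FPKM in mutant replicates 1 to 3, against a mean of 4.93 FPKM in N2. col-143 averaged 0.285 FPKM in the mutant and 44.1 FPKM in N2. Some of the 63, col-95 and col-143 among them, passed the filter on low values only through their N2 libraries. col-20 averaged 20.7 ± 4.17 FPKM in the mutant and 949.8 ± 322 FPKM in N2 (log2 change -5.41, SE 0.25, adjusted p = 2.11e-06).

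**Figure D4:**
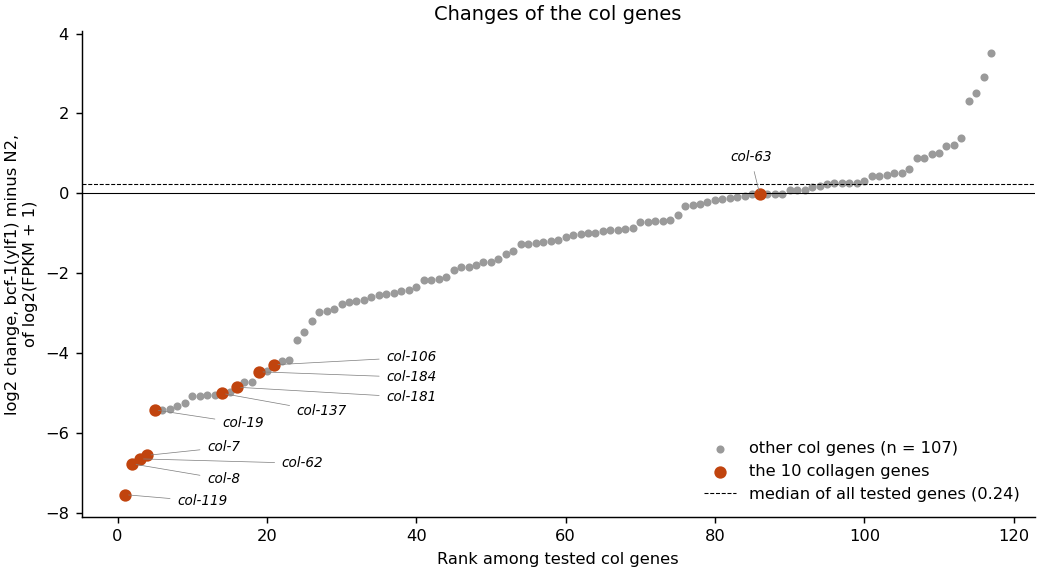
Log2 change, mutant minus N2, of the 117 tested col genes in rank order (vertical axis, log2(FPKM + 1) scale; large points are the 10 genes, small points the other 107, the dashed line the median of all tested genes). The 5 lowest ranks are held by col-119, then col-8, then col-62 and its neighbour col-7, then col-19, col-137, col-181, col-184 and col-106 are mixed with other col genes between ranks 14 and 21, and col-63 is 86th.

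By the root mean square difference of their centred log2 profiles over the 6 libraries, the tested genes nearest to col-19 outside the 10 were col-81, col-20, col-178, col-126 and col-179, at 0.07, 0.16, 0.20, 0.20 and 0.21 log2 units. Since the profiles were centred over both genotypes, the distance mostly reflects how similar the genotype differences are in size, and shared regulation was not tested. Within the 10, col-181 was at 0.42, col-137 at 0.46, col-184 at 0.57, col-7 at 0.61, col-62 and col-106 at 0.65, col-8 at 0.74, col-119 at 1.096 and col-63 at 2.79 log2 units. col-126 averaged 2.09 ± 0.765 FPKM in the mutant and 103 ± 28.9 FPKM in N2. Other genes with small p-values were col-122, col-140 and col-129, with log2 changes of -4.18, -4.71 and -5.05 (limma adjusted p = 1.21e-06, 1.3e-06 and 1.3e-06). At the other end of the family, col-176 rose to 189 ± 52.9 FPKM in the mutant, against 15.9 ± 5.12 FPKM in N2 (log2 change 3.50, SE 0.25, adjusted p = 1.68e-05), and col-128, col-41 and col-46 rose by 2.92, 2.52 and 2.31 log2 units (limma adjusted p = 2.04e-05, 0.00127 and 1.26e-05).

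Collagens with known mutant phenotypes were mostly higher in the mutant. All 6 furrow collagens, which form the circumferential furrows of the cuticle, rose, where 34.6% of all tested genes did. Among the 6, dpy-10, dpy-2, dpy-9 and dpy-7 rose by 2.93, 2.81, 2.75 and 2.65 log2 units (limma adjusted p = 7.87e-06 to 1.46e-05). The summed level of the 6 was 1090 to 1156 FPKM in the mutant libraries, above the 128 to 148 FPKM of the 9 collagens there. In the N2 libraries it was 111 to 200.3 FPKM, below the 3677 to 6473 FPKM of the 9 collagens. Of 13 tested collagens of body shape and blistering, 9 rose and 0 fell (34.6% and 14.99% of all tested genes rose and fell). Among the 9, bli-1, lon-3, bli-2 and rol-6 had log2 changes of 2.11, 1.78, 1.31 and 1.15 (limma adjusted p = 0.000159, 0.000178, 0.000701 and 0.000721).

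Of 16 genes of collagen processing and cross-linking, 8 rose and 2 fell, where 34.6% and 14.99% of all tested genes rose and fell. After median-ratio scaling 5 of the 16 rose, beside 2975 of 13544 genes tested in that fit, so nothing particular to the list is read from these counts. The smallest p-values were of fkb-5, a peptidyl-prolyl isomerase of the secretory pathway (log2 change 1.56), phy-2, a prolyl 4-hydroxylase subunit, dpy-11, a thioredoxin-like protein, and tsp-15, a tetraspanin of the cross-linking oxidase complex, at 1.04, 0.88 and 0.86 (limma adjusted p = 0.000354, 0.000654, 0.00128 and 0.00101). The 2 that fell, named after their values were seen, were mlt-7, a peroxidase of the cuticle, and doxa-1, a maturation factor of the cross-linking oxidase, both at -0.59 (limma adjusted p = 0.00683 and 0.0148), and doxa-1 lost its call without mutant replicate 3 (adjusted p = 0.0752), leaving 1 that fell.

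Of 16 regulators tied to collagen genes or to developmental timing, 11 rose and 0 fell, where 34.6% and 14.99% of all tested genes rose and fell. After quantile normalisation 8 of the 16 rose and lin-46 fell. lin-29, the activator of col-19, had 29.2, 38.1 and 29.0 FPKM in mutant replicates 1 to 3, against 9.02, 11.3 and 13.6 FPKM in N2 replicates 1 to 3, with no overlap (log2 change 1.43, SE 0.18, limma adjusted p = 0.000263). mab-10, a cofactor of LIN-29, rose to 45.2 ± 5.86 FPKM in the mutant, against 10.9 ± 1.82 FPKM in N2 (log2 change 1.96), and nhr-23, a nuclear receptor of the moulting cycle, grh-1, a Grainyhead factor of the epidermis, and elt-1, a GATA factor of epidermal fate, rose by 1.77, 1.60 and 1.33 log2 units. For the last 4, limma adjusted p was 2.98e-05, 5.57e-05, 9.79e-05 and 0.000131.

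Genes linked to the larval moult and to the adult stage moved with the genotype as well. Of 16 moulting genes 14 rose and 0 fell, where 34.6% and 14.99% of all tested genes rose and fell, and nas-36 was lower after quantile normalisation. Among the 14, fbn-1, noah-2, let-653 and nas-37 rose by 2.68, 2.42, 2.40 and 2.02 log2 units (limma adjusted p = 5.1e-06 to 2.92e-05). The summed level of the 16 was 1431 to 1616 FPKM in the mutant and 304 to 499 FPKM in N2. All 6 vitellogenins fell, where 14.99% of all tested genes did, with sums of 12.96 to 38.7 FPKM in the mutant and 2428 to 3641 FPKM in N2. vit-4, vit-3, vit-1 and vit-5 had log2 changes of -7.04, -6.81, -5.09 and -7.25 (limma adjusted p = 1.88e-07 to 1.62e-06), and how reads are shared between the similar vit-3, vit-4 and vit-5 is unknown. vit-4 had 0.866, 0.725 and 0.292 FPKM in mutant replicates 1 to 3, so it passed the filter on low values only through its N2 libraries. The part of these genes' difference in that of the collagens was not tested, and a difference in stage between the libraries and an effect of the genotype itself cannot be told apart in this design.

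Markers of the tissue that makes the cuticle were present in both genotypes. Of 12 tested hypodermis and seam markers 9 rose and 1 fell, where 34.6% and 14.99% of all tested genes rose and fell. The 13 in the table summed to 596 to 603 FPKM in the mutant and 240 to 293 FPKM in N2. wrt-10, dpy-7 and wrt-2 rose by 2.71, 2.65 and 2.502 log2 units, and the fall was of pah-1, the phenylalanine hydroxylase of the hypodermis, at -1.65 (limma adjusted p = 1.07e-05, 1.46e-05, 3.82e-05 and 1.99e-05). Much of the mutant sum came from wrt-10, wrt-2 and dpy-7, which is also a furrow collagen, at means of 166, 98.6 and 192 FPKM. Changes were smaller for lin-26 and elt-3, at 0.59 and 0.63 (limma adjusted p = 0.0076 and 0.0136). For nhr-25 and che-14 they were 0.35 and 0.31, and neither passed the test (limma adjusted p = 0.121 and 0.244). Marker sums of other tissues, 4 genes each and none at 0 throughout, ran from 227 to 253 FPKM in the mutant and 46.0 to 54.4 FPKM in N2 for the pharynx, and from 1444 to 1735 FPKM in the mutant and 897 to 1122 FPKM in N2 for body wall muscle. They ran from 1006 to 1331 FPKM in the mutant and 1651 to 2057 FPKM in N2 for the intestine, from 169 to 203 FPKM in the mutant and 154 to 159.8 FPKM in N2 for neurons, and from 357 to 421 FPKM in the mutant and 232 to 362 FPKM in N2 for the germline. Their part in the difference of the collagens was not tested.

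**Figure D5:**
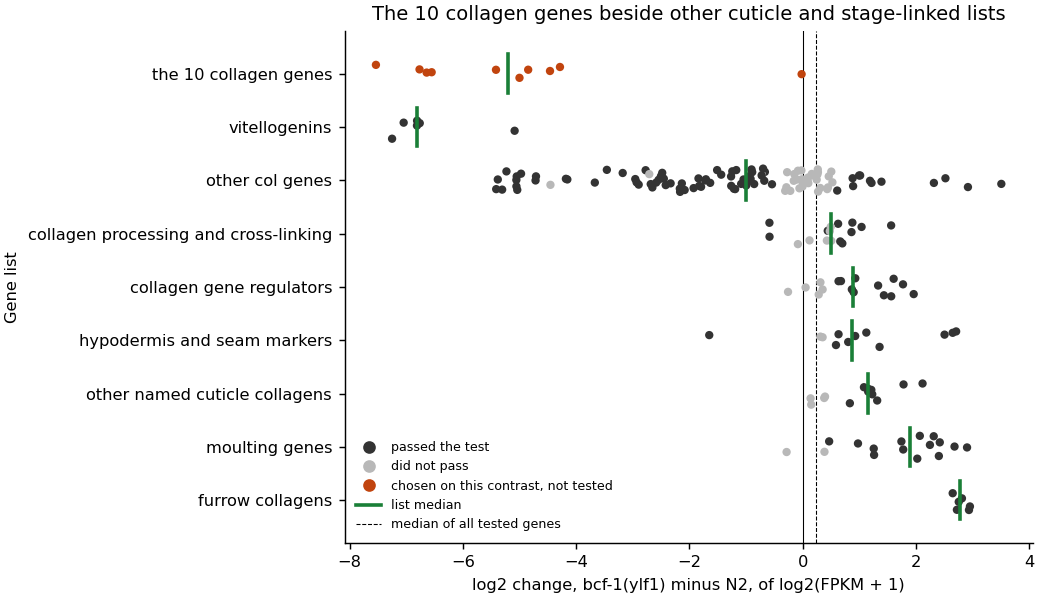
Log2 change, mutant minus N2, for each gene of the cuticle and stage-linked lists (horizontal axis, log2(FPKM + 1) scale; rows are lists, dark points passed the limma test, pale points did not, red points are the 10 collagen genes, green bars are list medians, the dashed line is the median of all tested genes). The 10 collagen genes, with a median of -5.21, and the vitellogenins have the lowest list medians, and the furrow collagens, between 2.65 and 2.95, the highest of the lists drawn.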

How the data were processed

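RNA of whole animals was sequenced in 3 bcf-1(ylf1) and 3 N2 libraries (TRIzol extraction and a VAHTS Universal V6 kit, per the labels' protocols). Expression came as 1 table that the authors deposited, whose values were taken to be FPKM. Its header and the labels name no unit. Column sums differ between libraries and values are not whole numbers. fastp and build WBcel235 are named, per the submitters' processing notes, and no source used here names the aligner, the quantifier, the annotation or the strand setting. RefSeq locus tags matched 19959 of 20894 rows. Of low values times annotated length, 18.1% to 27.9% lay within 0.1 of a whole multiple of their commonest value, so read counts were not recovered and no counting interval is given.

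Genes reaching 1 FPKM in 3 or more libraries were fitted as log2(FPKM + 1) with limma 3.58.1 in R 4.3.3 (genotype only, mean-variance trend). Tests were two-sided and adjusted by Benjamini-Hochberg over 13576 genes at 0.05; the fit was tested on simulated data. Log2 changes are mutant minus N2. Members and lists were chosen with earlier results of these data known. Named besides the 10 were bcf-1, up to 4 genes with the smallest p per list (marker lists apart), the 4 largest falls and rises among other col genes, the 5 genes nearest to col-19 and flanking col genes. lin-29, mlt-7, doxa-1, lin-46, nas-36, col-93, col-95, col-127, col-143, lin-26, elt-3, nhr-25, che-14 and the genes overlapping a collagen were named after their values were seen. Other pseudocounts, filters, scalings, a fit without trend, a replicate block and each library left out were tried.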

Additional observations from a re-analysis of the deposited data

How the results depend on the processing

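Over the 13 alternatives (pseudocounts of 0.1 and 0.5, no filter, median-ratio scaling, quantile normalisation, a replicate block, no trend and each library left out in turn), the 9 collagens other than col-63 kept a negative log2 change wherever they passed the filter, and the median of those of the 10 genes that passed ran between -5.46 and -4.99. Nothing is read from that stability, since the genes were chosen with this contrast known. col-8 did not pass the filter without any one of the N2 libraries, since its mutant libraries lie under 1 FPKM. With a pseudocount of 0.1 the log2 changes of col-8 and col-7 became -8.21 and -7.35. All tested genes called higher were 2975 and lower 3210 after median-ratio scaling, where 5 genes of collagen processing rose. Quantile normalisation gave 1 lower gene each among the regulators and the moulting genes. Leaving out 1 library gave 2877 to 5720 genes higher and 1640 to 1870 lower, and 1 to 2 genes of collagen processing lower. The 63 other col genes called lower numbered 53 to 66 over all alternatives. The other genes named by the rule, lin-29, mlt-7, doxa-1 and those overlapping a collagen kept their direction throughout, and their side of the threshold in 588 of their recomputed values. The exceptions among them were pdzd-8 (median-ratio scaling and without mutant replicate 3), lgc-38 (quantile normalisation) and doxa-1 (without mutant replicate 3), which lost the call. lin-46 and nas-36, which are not among these values, did not pass the test in the main setting (adjusted p = 0.181 and 0.231) and passed it as lower after quantile normalisation (adjusted p = 0.0149 and 0.0470). The replicate numbers did not pair the samples (correlations of same-numbered deviations of 0.0097, -0.0737 and -0.277), and with a replicate block 4309 genes were higher and 1863 lower and 66 other col genes were lower. Depth is unknown, so levels under about 1 FPKM, such as those of col-8 in the mutant, have no stated precision beyond the spread of 3 libraries.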
